A study of Rattus norvegicus with 141 samples.

Results

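Livers of rats given microplastics at 50 mg/kg were compared with livers of rats given vehicle. All liver libraries whose labels carry either dose group were taken, which gave 30 libraries: 14 at 50 mg/kg and 16 with vehicle, of 46 liver libraries and 141 libraries in the whole series. The animals were adult wild-type Sprague-Dawley rats, an outbred strain, on a standard chow. The 50 mg/kg group held 8 males and 6 females, and the vehicle group held 8 males and 8 females. A 5 mg/kg group of 16 liver libraries is used only where the high dose is set beside the low one. The labels used here do not name the particle material, the vehicle or the length of exposure. Polyadenylated RNA was sequenced from pieces of frozen tissue ground together. The batch named in the labels was spread over the groups: batches 1, 2 and 3 held 2, 4 and 2 male vehicle libraries, 2, 4 and 2 male high-dose libraries, 4, 4 and 0 female vehicle libraries and 1, 4 and 1 female high-dose libraries. Per the labels' protocols the homogenizer was rinsed between samples of a treatment and taken apart between treatments, so handling ran along with dose and the 2 cannot be told apart.

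The liver receives blood straight from the gut and clears foreign material by 2 routes. Hepatocytes sense many chemicals through nuclear and cytosolic receptors (the aryl hydrocarbon receptor, CAR, PXR and PPAR alpha), which switch on cytochrome P450 and conjugating enzymes, while NRF2 switches on antioxidant enzymes. Kupffer cells, the resident macrophages of the sinusoids, take up particles, and injury signals turn on acute phase proteins in hepatocytes and collagen in stellate cells. Rat liver also differs strongly between males and females, because the pattern of growth hormone release sets many P450 and sulfotransferase genes.

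No liver gene passed the test for a difference between 50 mg/kg and vehicle. Over both sexes, edgeR's quasi-likelihood test called 0 of 12819 genes at an adjusted p under 0.05 (0% of genes called), and the smallest adjusted p was 0.9996. DESeq2 and limma-voom also called 0 genes. At an unadjusted p under 0.05 edgeR listed 389 genes, DESeq2 413 and limma-voom 719. Of the 389 genes, 165 were higher (1.29% of those tested) and 224 were lower (1.75%) at 50 mg/kg. With no difference at all, a share of about 0.05 of the genes would pass this unadjusted threshold. That share is above the edgeR shares given here. The values named in the text that follows are therefore estimates with their intervals, and none is a call.

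Most genes were measured closely enough to bound the difference. The median size of the log2 difference was 0.07 and the median standard error was 0.124. The 95% interval lay within 2-fold in both directions for 12471 genes (97.3%) and within 1.5-fold for 10942 genes (85.4%). Within males alone these shares were 92.3% and 66.8%, and within females alone 90.9% and 64.3%. A known difference was seen in the same fit: female and male vehicle livers differed in 2653 genes by edgeR's quasi-likelihood test (20.7% of genes called), 1293 higher and 1360 lower in females, 799 of them by more than 2-fold.

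**Figure D1:**
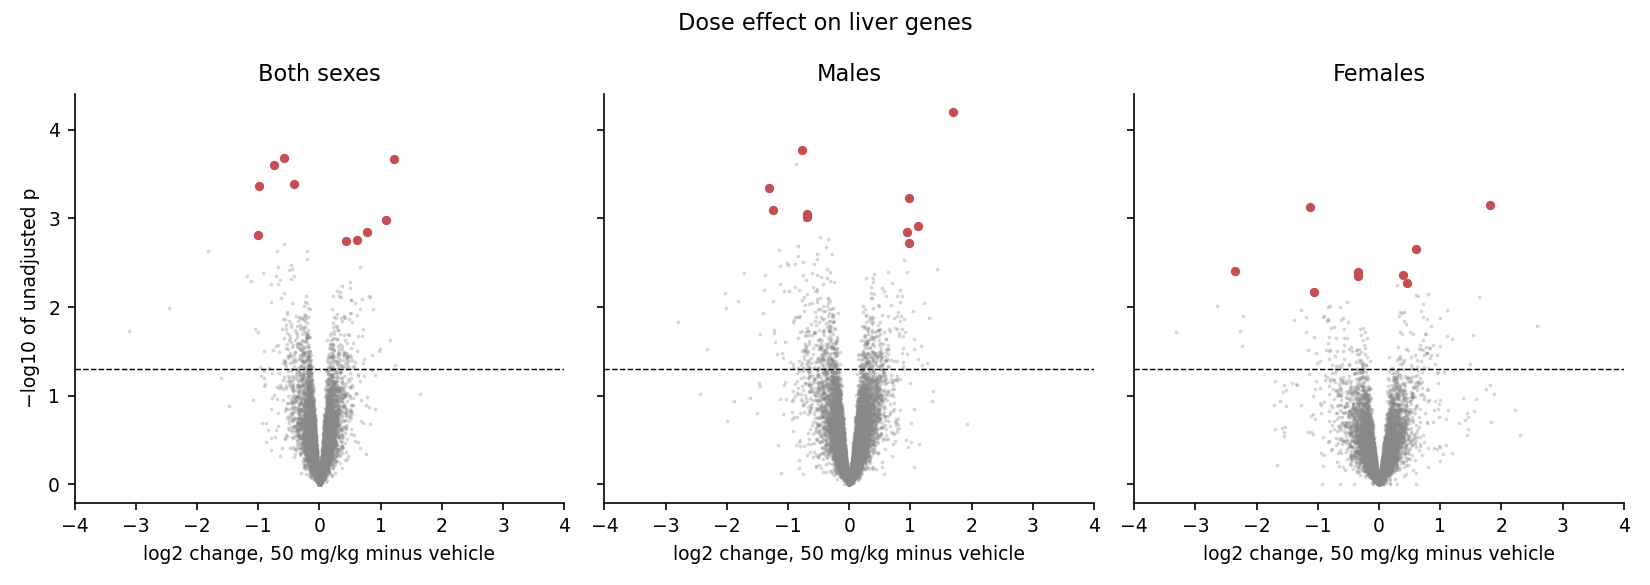
Each point is 1 liver gene, with the log2 difference of 50 mg/kg minus vehicle on the x axis and minus log10 of the unadjusted p on the y axis, for both sexes, males and females; the dashed line marks an unadjusted p of 0.05. Red points are the genes of smallest p named in the text, none of which passed after adjustment, and 1 gene of the female panel, LOC120094955, lies outside the axis.

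Library totals overlapped between the dose groups, at 6153400 to 20743000 estimated counts with vehicle and 7614400 to 23717000 at 50 mg/kg. Hepatocyte markers (Alb, Ttr, Cps1 and 7 others) summed to 113870 to 199300 CPM (counts scaled to a common library size) with vehicle and 92630 to 170510 CPM at 50 mg/kg, so the libraries held the tissue their labels give. The 4 Y-linked genes measured summed to 72.7 to 158 CPM in the 24 male liver libraries and to at most 0.272 CPM in the 22 female ones. The share of mitochondrial transcripts had a median of 7.54% with vehicle (5.27% to 9.11%) and 8.12% at 50 mg/kg (4.01% to 10.4%). Ribosomal protein genes took a median of 0.673% (0.488% to 1.27%) and 0.748% (0.470% to 1.53%). Both medians moved in opposite directions in the sexes: the mitochondrial share was 7.36% with vehicle and 8.44% at 50 mg/kg in males and 7.64% and 7.26% in females, and the ribosomal protein share 0.664% and 0.533% in males and 0.691% and 0.797% in females. Their part in the results was not tested. The labels do not say that the libraries of a group came from separate animals, so p-values measure the spread between these libraries only. In bulk tissue, fewer cells of a type and less RNA per cell cannot be told apart.

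Among the genes that were higher at 50 mg/kg, the smallest p belonged to Bmp4, a secreted signalling protein of the bone morphogenetic family. Its level was low throughout: male vehicle livers had 0.263, 0.484 and 0.66 CPM (lowest, median and highest of 8) and male high-dose livers 0.303, 1.22 and 3.28 CPM (of 8). Female vehicle livers had 0.431, 0.516 and 0.689 CPM (of 8) and female high-dose livers 0.502, 0.705 and 1.09 CPM (of 6). The high-dose males spread over a far wider range than the other groups, and the dose groups overlapped in both sexes. Over both sexes the log2 difference was 1.22 ± 0.291 (SE, 95% interval 0.62 to 1.81, adjusted p = 0.9996 by edgeR). It was 1.07 ± 0.591 within batch 1 (6 vehicle and 3 high-dose libraries) and 0.97 ± 0.354 within batch 2 (8 and 8). The value in males alone was 1.69 ± 0.372 (adjusted p = 0.8073 by edgeR), which was the smallest adjusted p in males.

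Vldlr, a receptor for triglyceride-rich lipoproteins, had similar values in both sexes. Male livers had 0.556, 0.735 and 1.27 CPM with vehicle and 0.795, 1.08 and 1.77 CPM at 50 mg/kg. Female livers had 0.431, 0.723 and 1.23 CPM with vehicle and 0.91, 1.11 and 1.93 CPM at 50 mg/kg. The ranges overlapped in each sex while the median was higher at 50 mg/kg in both. The log2 difference was 0.62 ± 0.184 (interval 0.24 to 1.00), and 0.77 ± 0.411 within batch 1 and 0.77 ± 0.249 within batch 2.

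Cd9, a tetraspanin of the cell surface, had medians of 1.74 CPM with vehicle and 2.2 CPM at 50 mg/kg in males, and of 1.59 and 2.14 CPM in females. Its ranges overlapped in males (0.742 to 2.86 against 1.07 to 4.4 CPM), and the log2 difference was 0.44 ± 0.128. Efcab2, an EF-hand protein, was at 0.33 to 0.788 CPM in male vehicle livers and 0.696 to 2.31 CPM in male high-dose livers, with a log2 difference over both sexes of 0.77 ± 0.223. Rp1, a microtubule-associated protein best known from photoreceptors, was nearly absent from females, where 7 of 8 vehicle and 5 of 6 high-dose libraries had no count of it. In males Rp1 had a median of 1.02 CPM with vehicle (0.268 to 1.93) and 1.93 CPM at 50 mg/kg (1.1 to 4.2), and its fitted difference of 1.08 ± 0.306 rests on the males. All 5 of these genes sat below 5 CPM in every library, and each had an adjusted p of 0.9996 (edgeR).

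Among the genes that were lower at 50 mg/kg, Mst1 was the only one of the 5 named that liver expresses at a high level. Mst1 encodes macrophage-stimulating protein, which hepatocytes secrete into plasma as an inactive precursor and which acts on the receptor Mst1r of macrophages and epithelia. Male vehicle livers had 82.4, 153 and 213 CPM (lowest, median and highest of 8) and male high-dose livers 65.2, 81.5 and 132 CPM (of 8). Female vehicle livers had 72.4, 147 and 196 CPM (of 8) and female high-dose livers 84.6, 121 and 139 CPM (of 6). In each sex the median was lower at 50 mg/kg and the ranges overlapped. The log2 difference was -0.57 ± 0.136 (SE, 95% interval -0.85 to -0.30, adjusted p = 0.9996 by edgeR). It was -0.38 ± 0.302 within batch 1 and -0.44 ± 0.145 within batch 2. In males alone it was -0.77 ± 0.177.

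The other lower genes were minor transcripts. Ccdc162 had medians of 1.6 and 1.11 CPM in males (vehicle, then 50 mg/kg) and 0.998 and 0.72 CPM in females, and a log2 difference of -0.75 ± 0.182. Ddx3, a copy of the RNA helicase genes Ddx3x and Ddx3y, had medians of 1.07 and 0.57 CPM in males and 0.998 and 0.673 CPM in females, with a difference of -0.99 ± 0.258. Rtcb-ps1, a pseudogene of the RNA ligase gene Rtcb, had medians of 3.68 and 2.97 CPM in males and 3.06 and 2.46 CPM in females, with a difference of -0.41 ± 0.103. The uncharacterised AABR07071482.1 ranged from 0 to 3.34 CPM with vehicle in males and from 0 to 1.25 CPM at 50 mg/kg, and its difference was -1.01 ± 0.299. Ddx3 and Rtcb-ps1 share sequence with near-identical genes, so the assignment of their counts is uncertain. In each of these genes the dose groups overlapped.

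**Figure D2:**
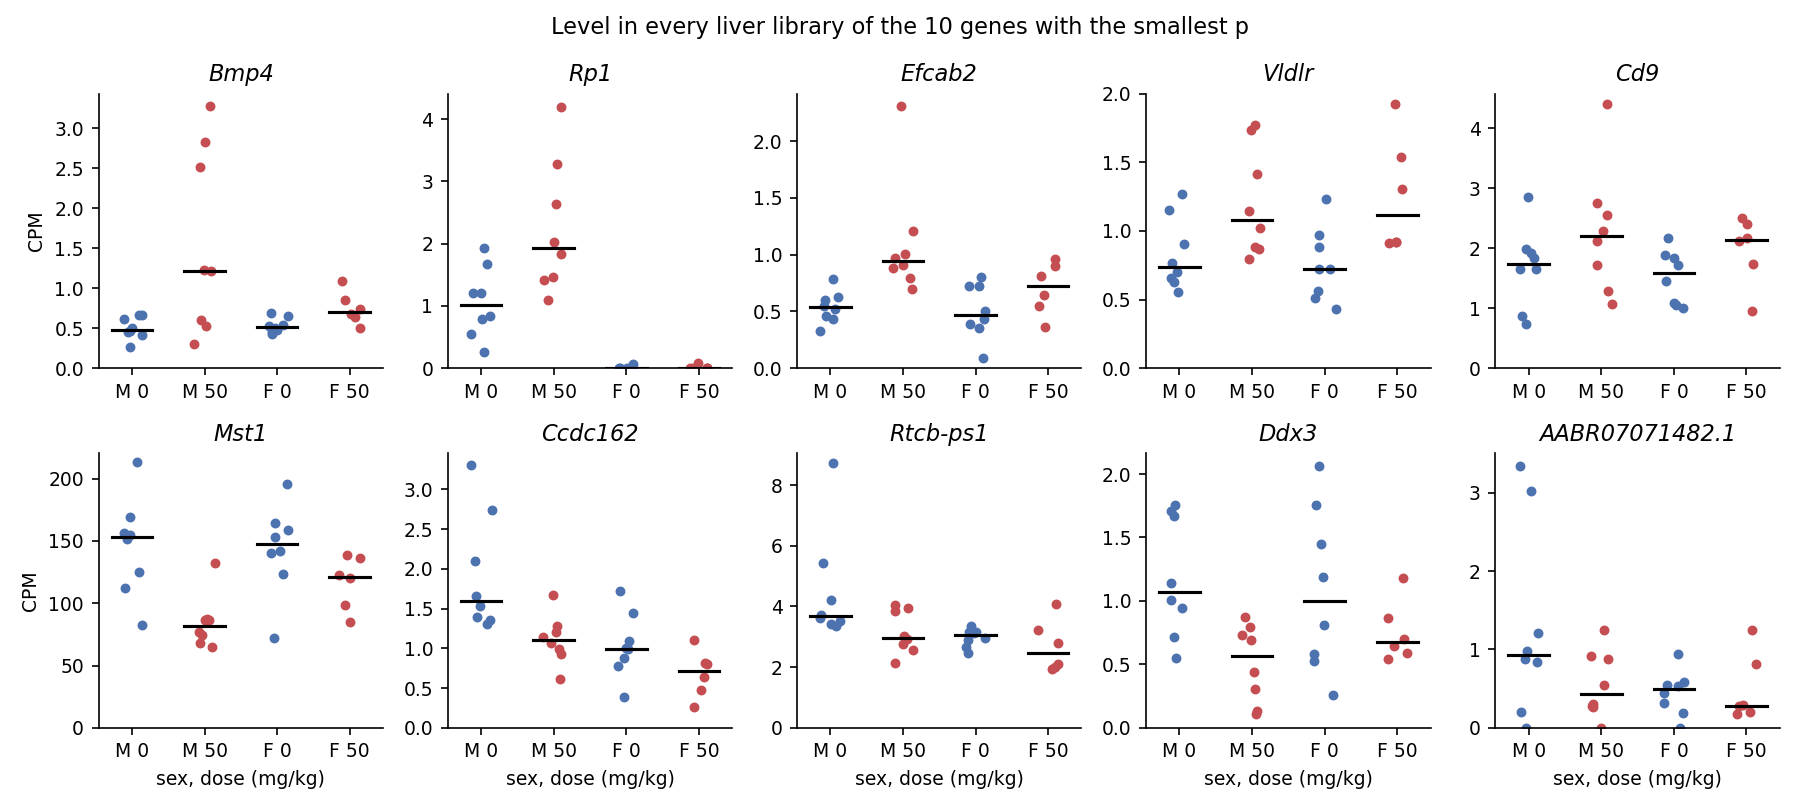
Level in CPM (y axis) of the 5 higher and 5 lower genes of smallest p in every library, by sex (M male, F female) and dose in mg/kg (x axis); each point is 1 library and the bar is the group median. High-dose male livers reached 3.28 CPM of Bmp4 against at most 0.66 CPM with vehicle, and Mst1 had a median of 81.5 CPM in high-dose males against 153 CPM with vehicle.

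The sulfotransferase Sult2a2, which conjugates steroids and bile acids with sulfate and is made mainly by female rat liver, had an uneven pattern. It has 2 entries in the table. Entry ENSRNOG00000062869 stood at 98.4 to 333 CPM in 7 of 8 female vehicle libraries and at 0 in replicate 6. At 50 mg/kg it stood at 231 and 142 CPM in replicates 1 and 4 and at 0.273, 0.482, 0.725 and 0.46 CPM in replicates 2, 3, 5 and 6. Each female vehicle or high-dose library was thus either high or nearly without counts of this entry. Counts alone cannot tell whether a low library had less of the transcript, came from an animal without that copy of the gene, or had its reads assigned to a related gene. The second entry, ENSRNOG00000063815, was low in the same libraries: 2.83 CPM in vehicle replicate 6 against 95.3 to 512 CPM in the other 7, and 3.91, 10.6, 5.62 and 6.16 CPM in the 4 low high-dose libraries against 270 and 114 CPM in the other 2.

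Low libraries therefore numbered 1 of 8 with vehicle, 4 of 8 at 5 mg/kg and 4 of 6 at 50 mg/kg. All 4 of the low high-dose libraries were of batch 2, and both high ones were of batches 1 and 3, while the 1 low vehicle library was of batch 1 and all 4 vehicle libraries of batch 2 were high (178 to 333 CPM for the first entry). The 4 low libraries at 5 mg/kg were 2 of batch 1 and 2 of batch 2. Males had at most 0.55 CPM. The log2 differences over both sexes were -3.11 ± 0.952 and -2.46 ± 0.734 for the 2 entries (unadjusted p = 0.0184 and 0.0103, adjusted p = 0.9996 by edgeR). Without female high-dose replicate 1 they became -7.82 and -5.09 (adjusted p = 0.0018 for each by edgeR). Within batch 2 alone they were -8.39 and -5.63 (adjusted p = 4.18e-05 and 8.07e-07 by edgeR). Both settings rest mainly on the batch 2 females, so they are not separate results. Without replicate 1, batch 1 has no high-dose female, and batch 3 has no female vehicle library. Batch 2 alone leaves out both high-dose females that kept the transcript. The part of batch in the split was not tested.

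**Figure D3:**
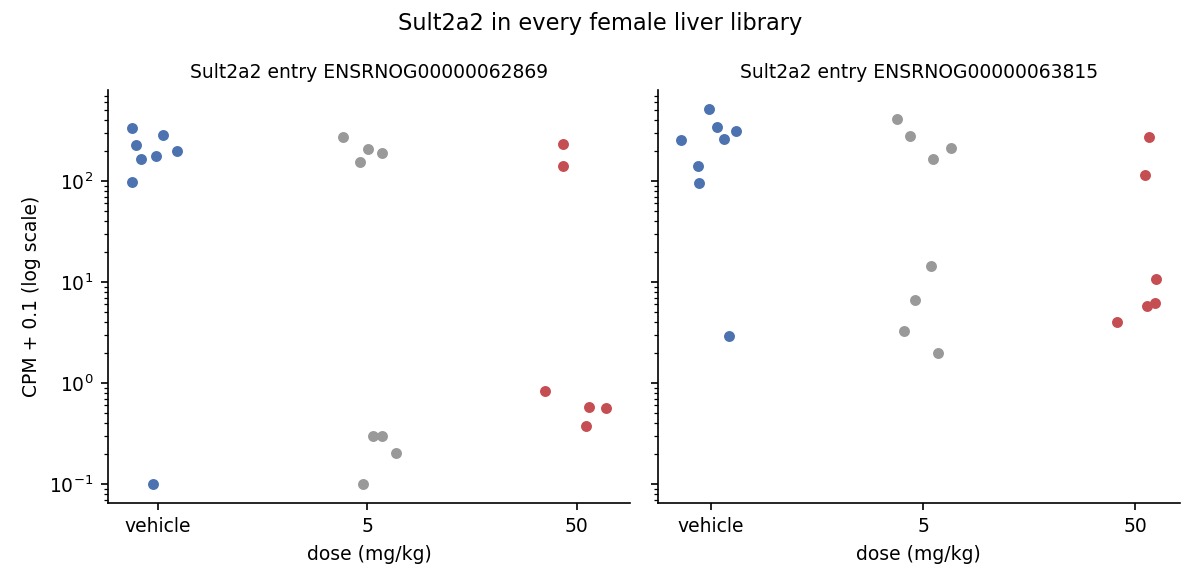
Level of the 2 Sult2a2 entries in every female liver library (y axis, CPM plus 0.1 on a log scale) by dose (x axis, mg/kg). Each point is 1 library; 1 of 8 vehicle, 4 of 8 low-dose and 4 of 6 high-dose libraries lie in the lower cluster of both entries.

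In males alone, the test called 0 of 12819 genes (0% called; smallest adjusted p 0.8073 by edgeR), with 582 genes at an unadjusted p under 0.05, 259 higher and 323 lower. DESeq2 and limma-voom called 0 as well, with 613 and 982 genes at an unadjusted p under 0.05. Besides Bmp4, Rp1 and Efcab2, the higher genes of smallest p were Osbpl3, an oxysterol-binding protein, and Slc5a3, a myo-inositol transporter. Osbpl3 had 0.659, 1.06 and 2.12 CPM with vehicle and 1.33, 2.11 and 4.22 CPM at 50 mg/kg (lowest, median and highest of 8). Slc5a3 had 0.44, 1.15 and 2.22 CPM with vehicle and 1.21, 2.25 and 2.83 CPM at 50 mg/kg. The log2 differences were 0.98 ± 0.255 for Osbpl3 and 0.94 ± 0.268 for Slc5a3, and both pairs of ranges overlapped.

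Lower in males, besides Mst1, were Hdc, Aldoc, Zfp821 and Cyp2c7. Hdc, which makes histamine from histidine, had a median of 1.39 CPM with vehicle (0.806 to 5.39) and 0.766 CPM at 50 mg/kg (0.417 to 1.33), a log2 difference of -1.31 ± 0.334. Aldoc, a glycolytic aldolase, was the one named gene whose male dose groups did not overlap, at 0.306 to 1.11 CPM with vehicle and 0.11 to 0.278 CPM at 50 mg/kg, with a difference of -1.25 ± 0.355. Zfp821, a zinc finger protein, went from a median of 3.7 to 2.17 CPM (-0.68 ± 0.185). Cyp2c7, a growth hormone dependent P450, was at 1110, 1660 and 3120 CPM with vehicle and 681, 1210 and 1610 CPM at 50 mg/kg, a difference of -0.68 ± 0.184. Cyp2c7 was the most abundant of the male leads, and its adjusted p was 0.9404 by edgeR, as for the other male leads apart from Bmp4.

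In females alone, the test called 0 of 12819 genes (0% called; smallest adjusted p 1 by edgeR), with 163 genes at an unadjusted p under 0.05, 75 higher and 88 lower. DESeq2 and limma-voom called 0 as well, with 174 and 679 genes at an unadjusted p under 0.05. The smallest p of a higher gene was that of LOC120094955, which had no count in any of the 8 vehicle libraries and some in 4 of 6 high-dose libraries. In males it was the other way round, with counts in 5 of 8 vehicle and 1 of 8 high-dose libraries. Egln3, a prolyl hydroxylase that marks HIF proteins for breakdown, had 0, 0.255 and 0.631 CPM with vehicle and 0.201, 0.953 and 1.18 CPM at 50 mg/kg (1.81 ± 0.493 on the log2 scale). Ccdc82 had a median of 1.59 CPM with vehicle and 2.5 CPM at 50 mg/kg (0.61 ± 0.184). Taf9b, a subunit of the transcription factor TFIID, had medians of 4.76 and 6.35 CPM (0.40 ± 0.129), and Rbm3, an RNA-binding protein induced by cold, 20 and 25.7 CPM (0.46 ± 0.155).

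The lower genes of smallest p in females included Iqub, whose groups did not overlap, at 0.942 to 1.82 CPM with vehicle and 0.273 to 0.827 CPM at 50 mg/kg (-1.13 ± 0.309). Inhbc, the inhibin beta C chain that hepatocytes secrete, was the most abundant, at 53.7, 66.6 and 77.7 CPM with vehicle and 40.1, 51.2 and 57.3 CPM at 50 mg/kg (95% interval below 0, log2 difference -0.34 ± 0.11). Ints11, the endonuclease of the Integrator complex, had medians of 8.08 and 6.85 CPM (-0.34 ± 0.111). Piezo2, a stretch-gated ion channel, had medians of 1.99 and 1.13 CPM (-1.06 ± 0.368). Gpbp1l2 had 2.01 to 6.52 CPM with vehicle and 0 to 4.72 CPM at 50 mg/kg, a difference of -2.36 ± 0.755. Each of these genes had an adjusted p of 1 by edgeR.

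The test of the difference between the sexes in their dose effect called 0 of 12819 genes (0% called; smallest adjusted p 0.9905 by edgeR), with 277 genes at an unadjusted p under 0.05, and 0 by DESeq2 (318) and limma-voom (834). The smallest p was that of LOC120094955, whose counts in the 4 groups are given above and for which no fold is given, since 1 of the groups had no count. The 95% interval of the sex difference lay within 2-fold for 76.1% of genes and within 1.5-fold for 37.2%, so this test was less precise than those of the dose effect. Hdc had 1.84 ± 0.513 (female minus male): its median was lower at 50 mg/kg in males, as given above, and in females it was 0.793 CPM with vehicle and 0.961 CPM at 50 mg/kg. Aldoc (1.59 ± 0.452) had female medians of 0.836 and 1.13 CPM, against the lower male values at 50 mg/kg. Spout1 had medians of 9.55 and 7.9 CPM in males and 6.9 and 8.68 CPM in females (0.50 ± 0.133), and Dhodh, which catalyses a step of pyrimidine synthesis, 6.65 and 5.12 CPM in males and 4.15 and 4.81 CPM in females (0.73 ± 0.224). On the other side, Osbpl3 (-1.35 ± 0.423) was near its vehicle median in females, at 0.628 and 0.622 CPM. Plekhs1 (-1.60 ± 0.475) had medians of 0.522 and 1.01 CPM in males and 0.546 and 0.326 CPM in females.

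When each sex was fitted on its own libraries, the dose differences of the 12819 genes pointed the same way in both sexes for 39.6% of genes. In the female fit, high-dose replicate 4 was the only library of batch 3, so the batch term absorbed it. The female differences there rest on the 1 high-dose library of batch 1 and the 4 of batch 2. Across genes the male and female log2 differences had a Pearson correlation of -0.177 and a Spearman correlation of -0.253, over genes that are not independent of one another and with no libraries in common. Of the 536 genes at an unadjusted p under 0.05 in males, 199 (37.1%) had the same sign in females. No gene was called by edgeR in either sex fitted apart. Vldlr and Mst1 had the same sign in both sexes, whereas the male leads Hdc, Aldoc and Osbpl3 did not share their male medians' direction in females. Vldlr and Mst1 were named for their p over both sexes. Hdc, Aldoc and Osbpl3 were named for their p in males and for the sex difference. The choice of genes therefore largely set this contrast.

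Genes that report on foreign chemicals came first among the response genes. Cyp1a1, the standard target of the aryl hydrocarbon receptor, was at 1.65, 2.52 and 16.9 CPM in male vehicle livers and 1.33, 2.47 and 10.7 CPM in male high-dose livers. Female livers had 1.93, 3.03 and 5.4 CPM with vehicle and 2.61, 3.92 and 6.26 CPM at 50 mg/kg. The groups overlapped, and the 95% interval of the log2 difference (-0.22 ± 0.174, from -0.58 upward) had its upper end at 0.14. Of the 6 receptor targets tested, 0 reached an unadjusted p under 0.05, and their median was -0.05.

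The targets of CAR and PXR, receptors that respond to phenobarbital-like and steroid-like chemicals, gave opposite values for a pair of near-identical genes. Cyp2b1 had 2.19, 4.73 and 9.24 CPM in male vehicle livers and 6.24, 8.43 and 16.1 CPM in male high-dose livers, and was at or below 0.958 CPM in every female. Cyp2b2 had 50.1, 122 and 144 CPM in male vehicle livers and 15.6, 64.1 and 174 CPM in male high-dose livers, and medians of 44.1 and 18.1 CPM in females. The log2 differences were 0.70 ± 0.288 (95% interval 0.11 to 1.29) for Cyp2b1 and -0.93 ± 0.285 (-1.51 to -0.35) for Cyp2b2. Because reads of the 2 genes are hard to tell apart, the sum is the safer value: its median was 130 CPM with vehicle and 71.7 CPM at 50 mg/kg in males, and 44.3 and 18.2 CPM in females, with overlapping ranges.

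Of the 22 CAR and PXR targets tested, 3 were higher and 2 lower at an unadjusted p under 0.05, with a median of -0.02. The other higher members were Cyp2c24 (0.86 ± 0.387) and Cyp3a23-3a1 at 0.46, both at or below 1.09 CPM in females. Their male medians were 1.94 and 5.25 CPM for Cyp2c24 and 2420 and 2710 CPM for Cyp3a23-3a1. For Cyp2c24 the male ranges overlapped (0.907 to 15 against 3.3 to 16.3 CPM). Its difference was 2.495 ± 0.462 within batch 1 and 0.203 ± 0.573 within batch 2. Cyp3a2, a male-predominant P450 induced through PXR, had -0.05 ± 0.434. The second lower member was Cyp2c7, whose difference over both sexes was -0.45 ± 0.143. The 5 members thus pointed both ways, and each had an adjusted p of 0.9996 (edgeR).

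Genes of oxidative and cell stress followed. Hmox1, which degrades haem, had medians of 20.5 and 19.5 CPM in males and 27.1 and 25.3 CPM in females, a log2 difference of -0.12 ± 0.129 (95% interval -0.38 to 0.14). Nqo1, the quinone reductase often used as a readout of NRF2, had medians of 36 and 31.7 CPM in males and 53.2 and 43.5 CPM in females, -0.19 ± 0.122 (-0.44 to 0.06). Of 31 NRF2 genes tested, 1 was lower at an unadjusted p under 0.05 and the list's median was -0.04. It was a low entry named Ftl1 (ferritin light chain), at -0.67 ± 0.293 and a level of at most 7.23 CPM. Its value was -1.07 ± 0.37 in males, -0.10 ± 0.437 in females and -0.01 ± 0.401 within batch 2. Gdf15, a cytokine released by stressed cells, varied widely, from 1.57 to 49.6 CPM in male and 4.57 to 84.9 CPM in female vehicle livers, so its interval was broad (-0.78 ± 0.47, -1.74 to 0.18).

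The unfolded protein response list (28 genes) had a median of -0.11, with the chaperones Calr (-0.22 ± 0.093) and Hyou1 (-0.27 ± 0.119) lower at an unadjusted p under 0.05. The 18 p53 targets had a median of 0.00, with 0 members at an unadjusted p under 0.05. Metallothionein Mt2A, which binds zinc and cadmium, had 0.04 ± 0.337.

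**Figure D4:**
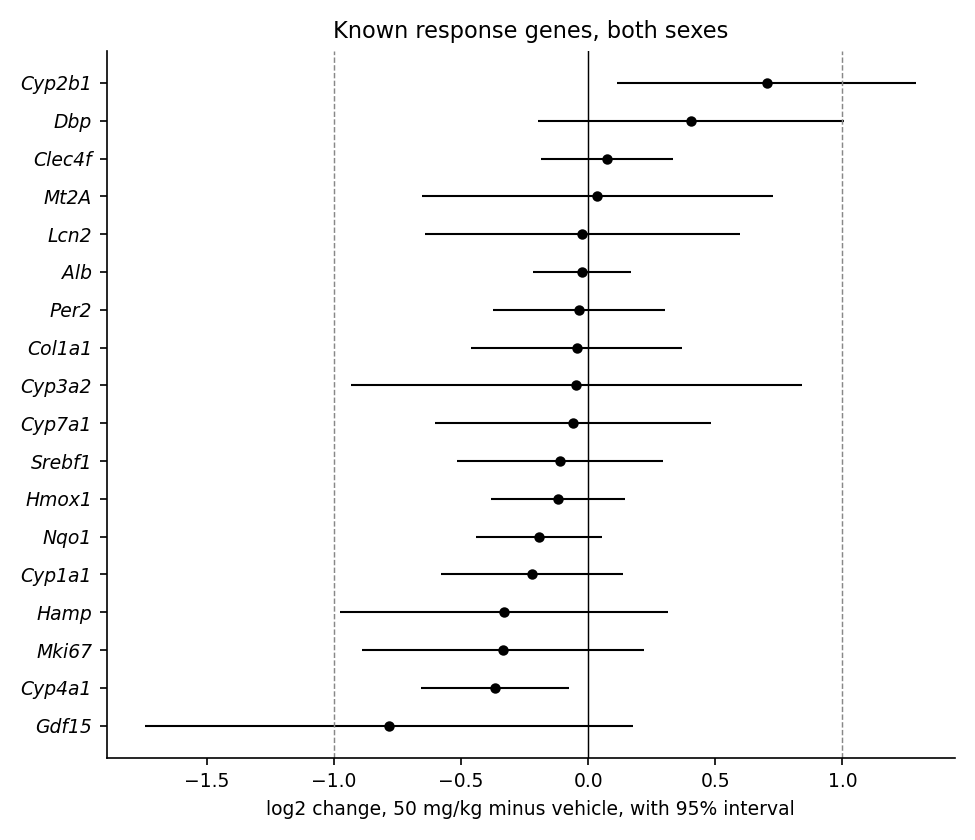
Log2 difference of 50 mg/kg minus vehicle over both sexes (x axis) for 18 genes picked for their known roles in liver responses (y axis), with 95% intervals as bars; dashed lines mark 2-fold. Hmox1, Nqo1, Alb, Clec4f and Col1a1 have intervals inside 2-fold, and Gdf15 has the widest, from -1.74 to 0.18.

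Genes of lipid handling lay mostly below 0. Cholesterol synthesis enzymes, driven by the transcription factor SREBP-2 when cell cholesterol is low, had 23 of 24 members below 0, with a median log2 difference of -0.21 and all 24 intervals inside 2-fold. Beside this, 50.1% of all genes tested were above 0. At an unadjusted p under 0.05, 7 members were lower and 0 higher, among them Tm7sf2, Acat2, Sqle, Mvd, Cyp51 and Nsdhl. Lss was the 1 member above 0. The members were measured in the same libraries and are not independent of each other.

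The male values of these genes lay further from 0 than the female ones, a difference that was not tested for the list. Sqle, squalene epoxidase, had 20, 29 and 35 CPM with vehicle and 15.6, 20.4 and 24.8 CPM at 50 mg/kg in males, and medians of 58.7 and 55.2 CPM in females (log2 difference -0.31). Tm7sf2, a sterol reductase, had medians of 53.7 and 39.8 CPM in males and 119 and 107 CPM in females (-0.35). The list's median was -0.31 in males, with 22 of 24 members below 0, and -0.05 in females, with 18 below 0. In both genes the dose groups overlapped. The list's median ranged from -0.265 within batch 2 to -0.08 within batch 1, and from -0.253 to -0.153 when single libraries were left out.

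PPAR alpha targets, the fatty acid oxidation genes induced by fibrates and fasting, had a median of -0.04 over 29 members, with 3 lower and 0 higher at an unadjusted p under 0.05. Cyp4a1, a fatty acid hydroxylase, had 98.2, 126 and 229 CPM with vehicle and 70.7, 82.8 and 154 CPM at 50 mg/kg in males, and medians of 179 and 137 CPM in females (95% interval -0.66 to -0.07). Fabp1, the liver fatty acid carrier, had medians of 2370 and 1770 CPM in males and 2070 and 1930 CPM in females (-0.30 ± 0.136). Angptl4, an inhibitor of lipoprotein lipase, had medians of 75.6 and 64.6 CPM in males and 136 and 94 CPM in females (-0.31 ± 0.14). Srebf1, the regulator of fatty acid synthesis, had -0.11 ± 0.198, and the 20 genes of that list had a median of -0.11 with 1 lower. Cyp7a1, the rate-limiting enzyme of bile acid synthesis, ranged from 20.1 to 307 CPM in female vehicle livers and had -0.06 ± 0.267 (interval -0.60 to 0.49).

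Sex-biased and growth hormone controlled genes had 5 of 32 members lower and 0 higher at an unadjusted p under 0.05, with a median of -0.13. Of all genes tested, 1.75% were lower and 1.29% higher at that threshold. The members are not independent of each other. Srd5a1, a steroid 5 alpha-reductase that females express more, had 173, 329 and 422 CPM with vehicle and 84, 179 and 318 CPM at 50 mg/kg in males, and medians of 1380 and 1260 CPM in females (-0.47 ± 0.155). Sult1e1, the estrogen sulfotransferase of male rat liver, had medians of 1340 and 733 CPM in males and at most 0.483 CPM in females. A1bg, a female-predominant plasma protein, had -0.66 over both sexes. Its female medians were 3350 and 3460 CPM, while its female means were 4100 and 3060 CPM. Males had at most 4.02 CPM, with medians of 1.26 and 0.479 CPM. Cyp2c7 and Sult2a2, described above, were the other members. The female-biased Srd5a1, Cyp2c7, Sult2a2 and A1bg and the male-biased Sult1e1 are described here because they were lower, so their shared direction follows from that choice. Over the whole list, 9 of 32 members were above 0, beside 50.1% of all genes.

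Inflammation lists had medians close to 0. The acute phase list (24 genes) had a median of -0.02, with Serpina3n, a protease inhibitor, lower at an unadjusted p under 0.05 (-0.37 ± 0.157). Hamp, the iron hormone hepcidin that inflammation induces, had 69.1 to 1110 CPM with vehicle and 102 to 795 CPM at 50 mg/kg in males, and -0.33 ± 0.316 over both sexes. Lcn2, an iron-siderophore binding protein of the same response, had -0.02 ± 0.304. The 34 interferon-response genes had a median of -0.06, with 0 at an unadjusted p under 0.05.

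Markers of the cells that take up particles came next. Of 16 Kupffer cell and macrophage markers tested, 14 were above 0 over both sexes, beside 50.1% of all genes, with a median of 0.09 and 0 members at an unadjusted p under 0.05. The list's median was 0.16 in males and -0.02 in females. Clec4f, a lectin specific to Kupffer cells, had 105, 133 and 224 CPM with vehicle and 94.7, 147 and 188 CPM at 50 mg/kg in males, and 106, 143 and 268 against 150, 168 and 203 CPM in females (0.08 ± 0.127, interval -0.19 to 0.33). The summed marker level was 531 to 1062 CPM with vehicle (median 666) and 541 to 1004 CPM at 50 mg/kg (median 754). Of 6 monocyte and neutrophil markers tested, 5 were above 0 and 2 were higher at an unadjusted p under 0.05, with a median of 0.25 (0.30 in males and 0.08 in females). Among the latter was Ccr2, the receptor that draws monocytes into tissue (0.54 ± 0.208). Ccr2 had medians of 1.08 and 2.25 CPM in males and 2 and 2.15 CPM in females, the dose groups overlapped, and its adjusted p was 0.9996 (edgeR). The summed level of the monocyte and neutrophil list was 7.33 to 20.5 CPM with vehicle (median 12.4) and 8.81 to 25.9 CPM at 50 mg/kg (median 13.8), and 3 of its 13 genes in the table were at 0 in most libraries.

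Markers of the other liver cells had medians close to 0 over both sexes. The median was -0.05 for 10 hepatocyte markers, -0.02 for 15 pericentral and -0.05 for 16 periportal hepatocyte markers, the genes that mark the 2 ends of the liver lobule. It was 0.00 for 12 hepatic stellate cell markers, 0.02 for 14 markers of the sinusoidal endothelium and 0.02 for 7 cholangiocyte markers, and 0 members of these 6 lists reached an unadjusted p under 0.05. Values near 0 over both sexes could stand for opposite signs in the sexes: the stellate median was 0.12 in males and -0.16 in females, and the endothelial one 0.12 and -0.09. The summed stellate markers had medians of 320 and 334 CPM in males (vehicle, then 50 mg/kg) and 329 and 260 CPM in females, with overlapping ranges. These differences between the sexes were not tested for the lists. T and NK cell markers (8 tested) had 0.06 and B and plasma cell markers (7 tested) 0.03. Alb, albumin, the main secreted product of hepatocytes, had -0.02 ± 0.094 (95% interval -0.22 to 0.17).

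House-keeping processes had medians near 0 over both sexes too. Of the 13 genes of mitochondrial DNA, which share 1 genome and are read from it together, 12 were above 0 over both sexes with a median of 0.07. This median was 0.21 in males and -0.08 in females, beside a mitochondrial share that was higher at 50 mg/kg in males and lower in females, as given above. The 33 nuclear respiratory chain genes had a median of -0.07, the 35 ribosomal protein genes -0.01 (-0.11 in males and 0.11 in females) and the 30 proteasome genes 0.00. None of these 4 lists had a member at an unadjusted p under 0.05. Among enzymes that attach sulfate, glucuronide or glutathione to chemicals, 2 of 24 were lower at an unadjusted p under 0.05, the sulfotransferases Sult2a2 and Sult1e1 (-0.56 ± 0.222), and the list's median was -0.04. Complement and coagulation genes (36 tested), which hepatocytes make for plasma, had a median of -0.04 with 0 at an unadjusted p under 0.05.

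Fibrosis and growth genes lay near 0 or below. The 28 collagen and fibrosis genes had a median of -0.05 with 0 at an unadjusted p under 0.05, and Col1a1, the main fibrillar collagen, had medians of 15 and 14.8 CPM in males and 5.3 and 5.46 CPM in females (-0.05 ± 0.203). The 37 cell cycle genes had a median of -0.21, with 4 above 0 and 0 at an unadjusted p under 0.05. Mki67, a marker of dividing cells, ranged from 3.84 to 44.8 CPM in male vehicle livers and had -0.33 ± 0.272. The cell cycle median was -0.841 within batch 1 and 0.102 within batch 2, so its direction differed between batches.

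Across all 49 gene lists, 0 held a called gene and 29 held no gene at an unadjusted p under 0.05. The medians lay between -0.32 and 0.25, with 40 lists within 0.1 of 0, 7 below -0.1 and 2 above 0.1. The lowest median came from only 2 tested genes of the intestinal and gastric list. The 2 lists above 0.1 were the monocyte and neutrophil list and MHC class II, with 0.11 and 8 of 9 genes above 0. The circadian clock list had 3 of 23 genes lower at an unadjusted p under 0.05, among them Bhlhe40 (-0.53 ± 0.23) and Nfil3 (-0.24 ± 0.102), while the clock output gene Dbp had 0.40 ± 0.295 and Per2 -0.04 ± 0.166. Each of these named clock genes had opposite signs within batches 1 and 2. Bhlhe40 had 0.18 ± 0.305 and -0.60 ± 0.174, and Nfil3 0.16 ± 0.179 and -0.40 ± 0.129. Dbp had -0.563 ± 0.392 and 0.615 ± 0.444, and Per2 0.08 ± 0.255 and -0.18 ± 0.243. The labels used here give no time of tissue collection.

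**Figure D5:**
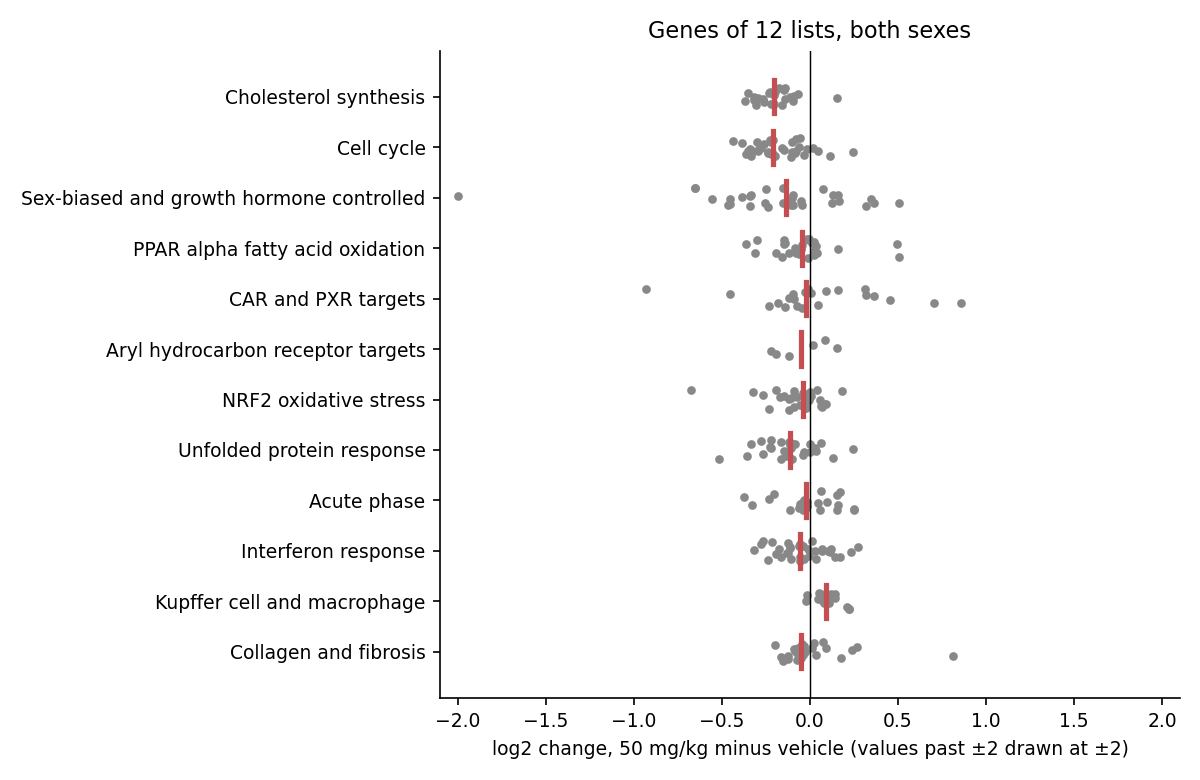
Log2 difference of 50 mg/kg minus vehicle over both sexes (x axis) for the tested genes of 12 lists (y axis); each grey point is 1 gene, the red bar is the list's median, and values past 2 are drawn at 2. Cholesterol synthesis genes lie below 0 except for 1, at a median of -0.21, and Kupffer cell markers lie mostly above 0, at a median of 0.09.

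The 50 mg/kg livers were last set beside the 16 livers at 5 mg/kg. This comparison uses the same high-dose libraries as the one with vehicle, so the values are not independent of those above. The test over all 46 liver libraries called 0 of 13130 genes (0% called; smallest adjusted p 0.9576 by edgeR), with 609 genes at an unadjusted p under 0.05, and 0 by DESeq2 (662) and limma-voom (1461). Against the low dose Bmp4 had 0.67 ± 0.257, Vldlr 0.38 ± 0.192 and Mst1 -0.31 ± 0.137. Cyp2b1 had 1.08 ± 0.393 and Cyp2b2 -0.65 ± 0.28, and Cyp4a1 had -0.03 ± 0.141.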

How the data were processed

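Before deposit the authors made estimated counts per gene from the reads, with STAR 2.7.11b, Salmon 1.10.3, Trim Galore 0.6.10, cutadapt 4.9 and UMI-tools 1.1.5 among the tools, per the submitters' processing notes, which also list FastQC 0.12.1, MultiQC 1.28 and the build mRatBN7.2. The role of each tool, the annotation and strandedness are not given in the labels. The deposited liver table of estimated counts held 30562 genes, 4380 of them without a symbol, and 9.47% of its values were fractional. Counts were rounded, which changed library totals by at most 0.000422%. In edgeR 4.0.16 (R 4.3.3), filterByExpr (minimum count 10, minimum total 15) chose the genes, and libraries were scaled by TMM and tested by its quasi-likelihood fit with terms for sex and batch, or for each sex and dose plus batch. CPM are TMM-scaled. Benjamini-Hochberg adjustment ran over all genes tested, with a call at an adjusted p under 0.05. Standard errors came from the fit. DESeq2 1.42.0, limma 3.58.1 and sva 3.50.0 (3 surrogate variables) were tried instead. So were no filter, no batch term, the ribosomal protein share as a covariate, single batches and leaving out each library. The fit was tested on simulated data. Figures used matplotlib 3.10.9.

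Named were the 5 genes of smallest p in each direction (both sexes, males, females, sex difference), up to 4 members of smallest p per list, and a set of known response genes. Of the last, Saa1 and Fgf21 are not analysed here, and a few other genes are not reported here. The members and the 49 lists (16 cell type, 33 pathway) were chosen with earlier results of these data known. Where a symbol had 2 table entries, lists used the first. No pair of libraries held identical values.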

Additional observations from a re-analysis of the deposited data

Results flagged for a closer look

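Within groups of 6 or 8 libraries, some values had a highest or lowest library far from the rest: the gap to its nearest neighbour, as a share of the group's whole range on the log2 scale, passed Dixon's 95% critical value. Chance flags about 1 in 20 groups, and 17 of 204 groups were marked. Among the leads, Mst1 stood out in female vehicle replicate 6 (0.534) and male high-dose replicate 4 (0.586), and Efcab2 in female vehicle replicate 3 (0.562) and male high-dose replicate 6 (0.550). Rp1 gave 1.000 in female vehicle replicate 8 and 1.000 in female high-dose replicate 6, the single libraries with any count in their groups. Among the P450 genes, Cyp2b2 stood out in male vehicle replicate 5 (0.652) and Cyp3a2 in male high-dose replicate 3 (0.754), which had no count of it. Among clock genes, Dbp stood out in female vehicle replicate 8 (0.533) and Per2 in female vehicle replicate 4 (0.632). Total estimated counts stood out in female vehicle replicate 1 (0.541), female high-dose replicate 4 (0.870) and male vehicle replicate 8 (0.659). Male high-dose replicate 6 stood out in its mitochondrial share (0.556) and its share of small noncoding RNA (0.675). The pancreatic acinar sum stood out in male vehicle replicate 2 (0.528) and the muscle sum in female vehicle replicate 7 (0.626).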

How the results depend on the processing

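For the 5 comparisons, 12 alternatives each were run, and each of the 30 libraries of the groups compared was left out in turn. The count of called genes stayed at 0 except as follows. Over both sexes it was 2 within batch 2 alone, and 0 to 3 when single libraries were left out; the 3, without female high-dose replicate 1, were both Sult2a2 entries and the unnamed ENSRNOG00000070843. In females it was 2 (both Sult2a2 entries) within batch 2 alone, and 0 to 2 when single libraries were left out, with 2 only without the same library. In males it was 1 within batch 1 alone (Serpina7, 2.7 ± 0.211, against 0.59 ± 0.456 in all batches). For the sex difference it was 1 within batch 1 alone (Serpina7) and 1 with a replicate block and batch (LOC120094955); leaving out libraries gave 0 to 0 there, in males and against the low dose. The cause of these calls was not tested. The shared replicate numbers did not pair the libraries: over 42 same-numbered pairs the correlation of deviations ran from -0.528 to 0.31 (median -0.08), and 1 library correlated best with its own number. With the replicate block, 0 genes were called over both sexes, in males, in females and against the low dose. The 10 leads over both sexes kept their sign in every setting in which they were tested, while 85 of 249 named values changed sign in some setting. The leads were picked for the smallest p in these same libraries, so a change of sign was unlikely from the start. The named values also include genes with small differences, so the 2 counts are not a fair comparison. The depth of the libraries gives few counts to the leads below 5 CPM.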

Other observations

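Sult2a2 was not the only transcript that single livers either held or lacked. A search made after the values were seen looked, within each sex over the 24 male and 22 female liver libraries of all 3 dose groups, for a gap of over 4 on the log2 scale between neighbouring libraries with the upper set above 10 CPM. It found 16 cases, 5 in males and 11 in females. Akr1c2, an aldo-keto reductase, was at or below 0.321 CPM in 4 of 8 vehicle, 4 of 8 low-dose and 4 of 6 high-dose female livers and at 16 to 244 CPM in the rest. Ugt2b, a glucuronosyltransferase gene, was at or below 6.61 CPM in 0 of 8, 0 of 8 and 2 of 6 female livers and at 706 to 2130 CPM in the others; in males it was low in 3 of 8, 2 of 8 and 1 of 8. Aldh1a7, an aldehyde dehydrogenase, was low in 0 of 8, 1 of 8 and 2 of 6 females and in 2 of 8, 4 of 8 and 2 of 8 males. Ubd, a ubiquitin-like modifier, has 2 entries, and only 1 was among the cases found. That entry was low in 2 of 6 high-dose females and 1 of 8 high-dose males and in no other liver. Serpinb9b was low in 4 of 8 low-dose females and in 0 of the 8 vehicle and 6 high-dose females. Cyp3a2 had no count in 1 of 8 high-dose males against 24.2 to 228 CPM in all other males. Scd, the stearoyl-CoA desaturase, was at 3.21 CPM in 1 high-dose female against 185 to 4160 CPM in the other females. Low libraries of 1 gene or another thus occurred in every dose group. As for Sult2a2, counts alone cannot tell less of a transcript from a gene copy that an animal lacks or from reads assigned to a related gene.

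Of the markers for tissue beside the liver, Cpa1, a pancreatic carboxypeptidase, reached 345 CPM in females, while the median of Prss1, Prss2, Cela2a, Pnlip and Ctrb1 was 0.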
